A study of Nicotiana tabacum with 12 samples.

Results

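The 48 tobacco gene models described here stood higher in TWTR roots than in every library of the 3 other root groups, WTR, CR and TCR. They were chosen on these values. A model had to average at least 1 and under 1000 FPKM over the 12 libraries, a unit that divides fragments by transcript length and by the library's mapped total. Its lowest TWTR value had to exceed the highest of the 9 other values, and its mean log2(FPKM + 1) in TWTR had to exceed the highest mean of the other groups by at least 1, a difference called the gap below. Of the 25273 models in the table, 19828 lay in that range of levels, and the 48 chosen make up 0.242% of them. The same rule took 408 models for CR, 21 for WTR and 20 for TCR. Because the rule used the TWTR values, every difference between TWTR and another group is given as a description, with no test.

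Messenger RNA was sequenced from roots of Nicotiana tabacum in 4 groups of 3 libraries each, known only by title codes: WTR, CR, TWTR and TCR. No label spells the codes out, and all samples carry one shared protocol text, which names an NtLHT1 mutant in hydroponic culture in an LN solution for 15 days. No genotype, treatment, plant age or number of pooled plants is tied to a code, so the groups are called by their codes. Whether replicates are separate plants is not stated, so the p-values speak only of how far these libraries vary, and that variation may be technical.

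LHT1 proteins belong to the lysine and histidine transporter family and carry amino acids into plant cells across the plasma membrane. Roots take up nitrogen mainly as nitrate and ammonium and also as amino acids, and a root short of nitrogen is known to change the expression of transporters, assimilation enzymes and regulators. Tobacco is an allotetraploid, so many of its genes have a near-identical copy from the other parental genome.

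The files do not pair the identifiers with gene names, and RefSeq's genes of assembly ASM71507v2 matched 0 of the 25273 identifiers. No function can therefore be given for any of the 48 models, and NtLHT1 and root marker genes were not analysed here. The FPKM sum of a library lay between 1099061 and 1154691, and absolute depth is unknown. Relative depth was read from low values, which were taken to stand for a few fragments. Relative to CR replicate 1, depth was 1.84 in CR replicate 2 and 0.913 to 1.15 in the remaining 10 libraries. Libraries of one group correlated at r = 0.972 to 0.983 over 19929 models, and libraries of different groups at 0.917 to 0.97.

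The 48 models ranged widely in abundance. Their mean TWTR level ran from 2.76 to 343.6 FPKM with a median of 23.6, and 9 models lay under 5 FPKM, 13 between 5 and 20, 18 between 20 and 100, and 8 at 100 or more. The median of their mean levels was 4.75 FPKM in WTR, 4.10 in CR and 5.37 in TCR. A higher level in whole roots can come from more RNA per cell or from more cells of the type that makes it, and these cannot be told apart.

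Most of the models lay not far above the limit. The gap to the next highest group had a median of 1.24 on the log2(FPKM + 1) scale and was under 1.5 in 38 models, between 1.5 and 2 in 8 and at least 2 in 2. Mean TWTR FPKM was 2.06 to 15.7 times the highest mean of another group, with a median of 2.76 times. Of all models in the range of levels, 7.77% had their lowest TWTR value above the 9 others. The lowest TWTR value was at least 2 times the highest of the 9 others in 24 of the 48 models, with a median ratio of 1.99. Taken against each group by itself, the median log2 difference was 1.61 over WTR, 1.90 over CR and 1.43 over TCR.

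**Figure D1:**
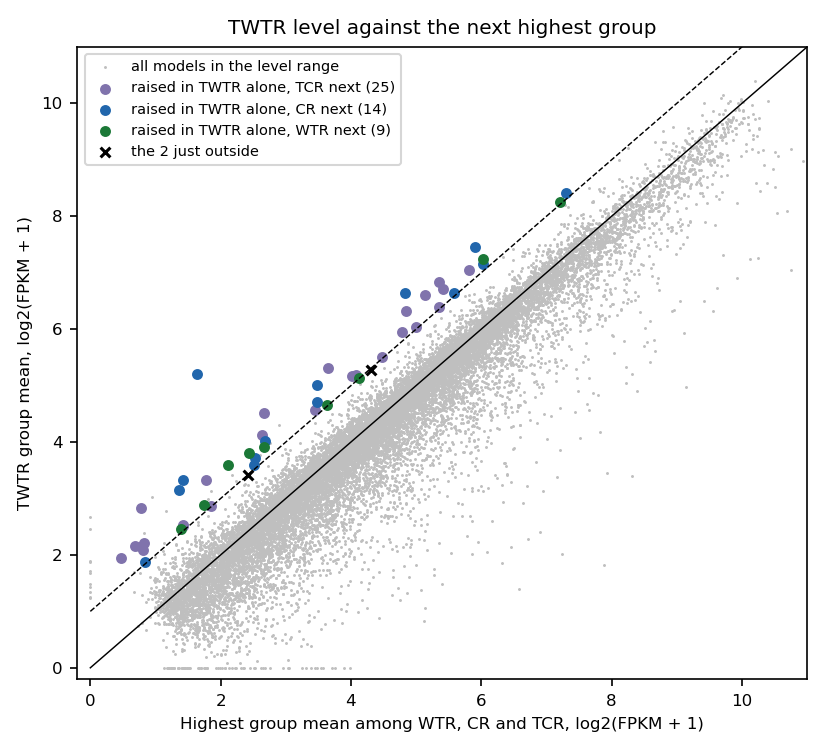
Mean log2(FPKM + 1) in TWTR (vertical) against the highest mean of WTR, CR and TCR (horizontal) for all models in the range of levels (grey) and the 48 models raised in TWTR alone, coloured by the next highest group; crosses mark the 2 models just outside the rule. The solid line marks equal levels and the dashed line a gap of 1; 1 model stands far above the dashed line at a gap of 3.57, and most lie close to it.

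The models at the edge of the rule show how fine the limit is. Just inside lay Nitab4.5_0000512g0070 with a gap of 1.0018, at 6.21, 6.33 and 6.24 FPKM in TWTR against a highest other value of 4.05. Nitab4.5_0000208g0080 followed with a gap of 1.01, at 28.19, 37.65 and 36.84 FPKM in TWTR against 19.14. Just outside lay Nitab4.5_0000059g0320 with a gap of 0.99, at 8.39, 10.25 and 10.56 FPKM in TWTR against 4.89, and Nitab4.5_0000308g0310 with a gap of 0.97, at 35.16, 42.27 and 36.46 against 19.88. The ratios of lowest TWTR to highest other value were larger for the models just outside (1.72 and 1.77) than for those just inside (1.53 and 1.47).

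Nitab4.5_0002076g0130 stood apart from the rest. It was at 32.48, 40.76 and 35.29 FPKM in TWTR, at 0.88, 0.51 and 2 in WTR, at 3.94, 1.15 and 1.84 in CR, and at 2.46, 0.75 and 1.44 in TCR. The lowest TWTR value was 8.24 times the highest of the others, the widest separation among the 48 models. The gap was 3.57 and the ratio of the TWTR mean to the next mean, that of CR, 15.7. With a pseudocount of 0.1 in place of 1 the gap was 4.08, and with a pseudocount of 5 it was 2.51.

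Nitab4.5_0002221g0040 had the next largest gap, at 2.05, on low values. It was at 4.56, 3.9 and 12.19 FPKM in TWTR, at 0, 1.43 and 0 in WTR, at 0, 0 and 1.3 in CR, and at 0, 1.22 and 1.3 in TCR. The 4 nonzero values outside TWTR, scaled by relative depth, were 1 to 1.11 times the smallest of them, and the TWTR values 3.09, 3.12 and 8.23 times. The values lay near whole steps, 8.23 least closely, as single fragments would, though the table gives no fragment counts. Relative depth was itself read from low values, so this spacing may be partly built in. Not every member with a value of 0 showed such steps. The gap moved from 2.05 to 1.6 without TWTR replicate 3, to 3.43 with a pseudocount of 0.1 and to 0.97 with a pseudocount of 5.

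Low values marked other members too. At least 1 library stood at 0 in 8 of the 48 models, at least 3 libraries in 5, and in 2 all CR libraries were at 0. One of those 2, Nitab4.5_0004179g0030, was chosen for mention after its values were seen. It was at 5.97, 1.71 and 1.99 FPKM in TWTR, at 1.7 in TCR replicate 3, at 1.66 in WTR replicate 3 and at 0 in the remaining 7 libraries. Scaled by relative depth, TWTR replicates 2 and 3 were 1.04 and 1.03 times the smallest nonzero value, and TWTR replicate 1 was 3.09 times that value. Its separation of 1.01 was the narrowest, and the only one under 1.2.

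The most abundant of the 48 models in TWTR was Nitab4.5_0000844g0120. It was at 308.83, 420.57 and 301.45 FPKM in TWTR, at 101.68, 103.53 and 115 in WTR, at 211.2, 132.64 and 136.98 in CR, and at 166.02, 159.58 and 140.83 in TCR. CR replicate 1 was the highest library outside TWTR, and the gap was 1.11. Next came Nitab4.5_0002920g0050, at 311.58, 304.23 and 291.97 FPKM in TWTR, at 154.99, 138.02 and 147.26 in WTR, at 54.85, 55.66 and 58.82 in CR, and at 131.41, 137.32 and 128.86 in TCR. Its libraries lay close together within each group, and its gap of 1.04 was among the smaller ones.

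The 3 TWTR libraries did not contribute evenly. TWTR replicate 2 held the highest TWTR value in 26 of the 48 models, replicate 3 in 14 and replicate 1 in 8. Over all 19929 models that average 1 FPKM or more those shares were 38.0%, 30.2% and 31.8%, in the same order. The coefficient of variation over the TWTR libraries had a median of 10.7% and reached 73.9%.

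To compare a TWTR library that had not chosen the models, the rule was applied without each one in turn. Without TWTR replicate 1 it took 55 models, and the replicate left out lay above all 9 other libraries in 48 of them (87.3%), against 16.1% of all models in the range. Without replicate 2 the counts were 47 of 54 (87.0%, against 19.7%), and without replicate 3 they were 44 of 51 (86.3%, against 19.2%). The library left out stood at least 1 above the next highest group mean in 35, 39 and 36 of these models. The 9 comparison libraries had helped to choose the models, so only the TWTR value was new in these counts. The models were chosen because the remaining TWTR libraries lay above the same 9 libraries, so a high share was likely beforehand. The shares of all models carry no such condition. The counts describe how alike the TWTR libraries were and are no independent support for the models.

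**Figure D2:**
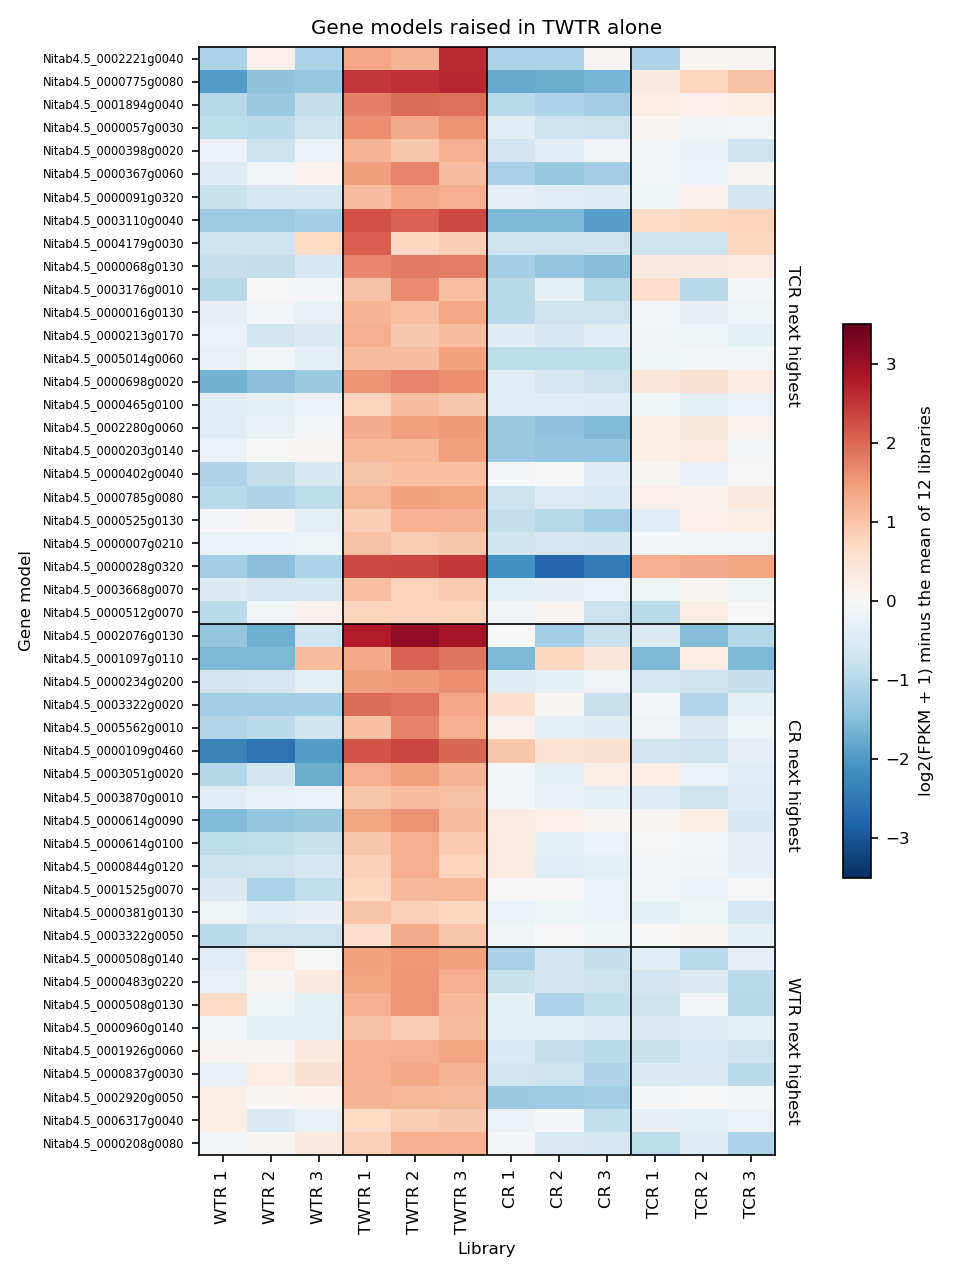
Log2(FPKM + 1) minus the mean of 12 libraries for the 48 models raised in TWTR alone (rows) in each library (columns), grouped by the next highest group and ordered by gap within it. TCR was next highest in 25 models, CR in 14 and WTR in 9; the TWTR columns are the highest in every row, by construction.

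The other 3 groups, whose order the rule did not fix, followed several patterns. By group mean, TCR came next after TWTR in 25 models (52.1%), CR in 14 (29.2%) and WTR in 9 (18.8%). Over the 19929 models that average 1 FPKM or more, the highest of these 3 groups was TCR in 32.9%, CR in 39.9% and WTR in 27.2%. CR was the lowest of the 3 in 24 of the 48 models (50.0%, against 34.8%), WTR in 18 (37.5%, against 34.8%) and TCR in 6 (12.5%, against 30.3%). The commonest order was TCR, WTR, CR, in 17 models (18.8% of all), followed by CR, TCR, WTR in 10 (20.5%), TCR, CR, WTR in 8 (14.1%), WTR, TCR, CR in 7 (16.0%), CR, WTR, TCR in 4 (19.4%) and WTR, CR, TCR in 2 (11.1%). These are orders of means and include neighbours closer than their spread. The shares also include 9 models that averaged under 1 FPKM over WTR, CR and TCR, and were not recomputed without them.

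Contrasts among WTR, CR and TCR were tested with limma on log2(FPKM + 1) over all 19929 models, with Benjamini-Hochberg adjustment and a threshold of 0.05. The 3 contrasts share libraries, so each is given by itself. All 48 models were among those tested, but 9 of them averaged under 1 FPKM over the 9 libraries of WTR, CR and TCR and had entered only through their TWTR values. Each contrast was therefore also fitted over the 19885 models that average at least 1 FPKM over these 9 libraries, a filter chosen after seeing the data, which kept 39 of the 48. The counts describe the chosen models and support nothing beyond them. The 48 models had a lower median level than all models tested (10.7 against 17.1 FPKM) and a larger median standard error (0.172 against 0.114), and the part of level and spread in the counts below was not tested.

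Between TCR and WTR, more of the models were higher in TCR than in WTR. In TCR minus WTR 23 of the 48 models passed (47.9%, against a background of 26.9% of all models tested). Of these, 19 rose (39.6%, against 15.7%) and 4 fell (8.33%, against 11.2%). Among the 39 models kept by the filter on WTR, CR and TCR, 18 rose (46.2%, against 15.7% of all models kept) and 3 fell (7.69%, against 11.2%). The median difference was 0.23, against 0.02 over all models. Of all calls, 58.3% were higher in TCR with FPKM as deposited and 49.7% after quantile normalization. With that scaling 18 of the 48 models rose (against 13.5% of all models) and 5 fell (against 13.7%). Of all 48 models, 10 passed with a rise of at least 1 (20.8%, against 2.71% of all models tested). A fall of at least 1 was passed by 0 (against 1.66%). These 2 shares were not recomputed for the 39 models.

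Nitab4.5_0000028g0320 was at 38.44, 39.99 and 41.13 FPKM in TCR, at 5.98, 4.96 and 6.66 in WTR, at 2.79, 1.41 and 2 in CR, and at 79.39, 80.93 and 89.86 in TWTR. The 4 groups did not overlap. Its TCR minus WTR difference was 2.58 (SE 0.144, limma adjusted p 1.33e-07), the largest among the 48. Nitab4.5_0000775g0080 was at 3.95, 5.53 and 6.93 FPKM in TCR and at 20.58, 21.59 and 23.21 in TWTR, while no WTR or CR library exceeded 0.55. It rose by 2.28 in TCR minus WTR (SE 0.197, limma adjusted p 4.58e-06).

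Of the models that fell in TCR minus WTR, Nitab4.5_0000208g0080 was at 7.88, 11.19 and 6.55 FPKM in TCR and at 14.2, 16.07 and 19.14 in WTR (difference -0.89, SE 0.198, limma adjusted p 0.00571). Nitab4.5_0001926g0060 was at 0.74, 1.09 and 0.8 FPKM in TCR and at 2.13, 2.12 and 2.8 in WTR (difference -0.83, SE 0.155, limma adjusted p 0.00173). In both models the TCR and WTR libraries did not overlap.

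The share that passed in TCR minus CR was close to the background, at 19 of the 48 models (39.6%, against 41.7%), but the directions were uneven. Of these, 16 rose (33.3%, against 19.6%) and 3 fell (6.25%, against 22.1%). Among the 39 models kept by the filter on WTR, CR and TCR, 14 rose (35.9%, against 19.7% of all models kept) and 3 fell (7.69%, against 22.2%). The median difference was 0.15, against -0.01 over all models. Of all calls, 47.1% were higher in TCR with FPKM as deposited and 53.7% after quantile normalization. With that scaling 16 of the 48 models rose (against 22.8% of all models) and 2 fell (against 19.7%). Of all 48 models, 10 passed with a rise of at least 1 (20.8%, against 2.94% of all models tested). A fall of at least 1 was passed by 1 (2.08%, against 4.92%). Neither share was recomputed for the 39 models.

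The largest rise was again in Nitab4.5_0000028g0320, by 3.76 (SE 0.144, limma adjusted p 3.13e-09). Nitab4.5_0003110g0040 was at 26.22, 27.93 and 29.64 FPKM in TCR and at 4.82, 4.87 and 3.57 in CR, with 6.23, 6.24 and 6.78 in WTR and 79.95, 72.2 and 84.8 in TWTR. It rose by 2.42 (SE 0.104, limma adjusted p 6.86e-09). For both models TCR lay between the low pair WTR and CR and the high TWTR.

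Nitab4.5_0000109g0460 went the other way, with 12.83, 8.86 and 9.17 FPKM for the CR libraries and 3.48, 3.29 and 4.76 for those of TCR. Its difference in TCR minus CR was -1.22 (SE 0.189, limma adjusted p 0.000293). Nitab4.5_0000234g0200 fell less, from CR values of 24.9, 26.65 and 31.09 FPKM to 21.9, 20.14 and 18.65 in TCR (difference -0.42, SE 0.105, limma adjusted p 0.00661). In TWTR it was at 94.35, 97.18 and 107.07 FPKM, with a gap of 1.82.

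**Figure D3:**
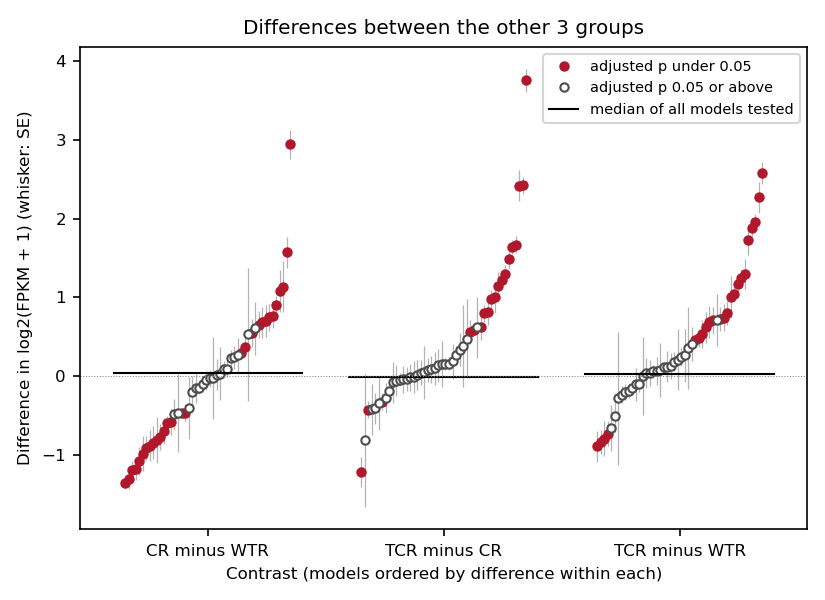
Differences in log2(FPKM + 1) between WTR, CR and TCR for the 48 models (points, with SE), ordered within each contrast; filled points passed limma at an adjusted p under 0.05 and the horizontal line is the median of all 19929 models. Of the models that passed, 19 lay above 0 and 4 below in TCR minus WTR, 16 and 3 in TCR minus CR, and 13 and 16 in CR minus WTR.

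Between CR and WTR, the share of the models that fell was above the background, and the share that rose was close to it. In CR minus WTR 29 of the 48 models passed (60.4%, against a background of 40.1%), of which 13 rose (27.1%, against 23.5%) and 16 fell (33.3%, against 16.6%). Among the 39 models kept by the filter on WTR, CR and TCR, 11 rose (28.2%, against 23.6% of all models kept) and 13 fell (33.3%, against 16.6%). The median difference was -0.04, against 0.04 over all models. Of all 48 models, 4 passed with a rise of at least 1 (8.33%, against 5.23% of all models tested). A fall of at least 1 was passed by 5 (10.4%, against 1.64%). Neither share was recomputed for the 39 models. The background split depends on scaling: 58.5% of all calls were higher in CR with FPKM as deposited and 44.7% after quantile normalization, with which 10 of the 48 models rose (18.4% of all models) and 17 fell (22.8%).

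Among the models that rose, Nitab4.5_0000109g0460 was at 0.39, 0.19 and 0.84 FPKM in WTR against the CR values above (difference 2.94, SE 0.189, limma adjusted p 2.92e-07). Its TWTR values were 31.52, 34.84 and 27.74 FPKM, and no groups overlapped. Nitab4.5_0000614g0090 was at 0.76, 1.01 and 1.09 FPKM in WTR and at 5.35, 4.81 and 4.27 in CR (difference 1.57, SE 0.191, limma adjusted p 5.29e-05), with 4.29, 4.9 and 2.53 in TCR, which overlapped CR, and 12.43, 14.21 and 9.95 in TWTR.

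Among those that fell, the abundant Nitab4.5_0002920g0050 had the largest difference in CR minus WTR, at -1.36 (SE 0.0547, limma adjusted p 7.04e-09), and its values in CR were the lowest of all groups. Nitab4.5_0000203g0140 was at 7.51, 8.86 and 9.63 FPKM in WTR and at 3.01, 2.82 and 2.86 in CR (difference -1.31, SE 0.122, limma adjusted p 6.18e-06). It stood at 10.37, 11.05 and 8.55 FPKM in TCR, which overlapped WTR, and at 21.19, 21.17 and 26.02 in TWTR.

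**Figure D4:**
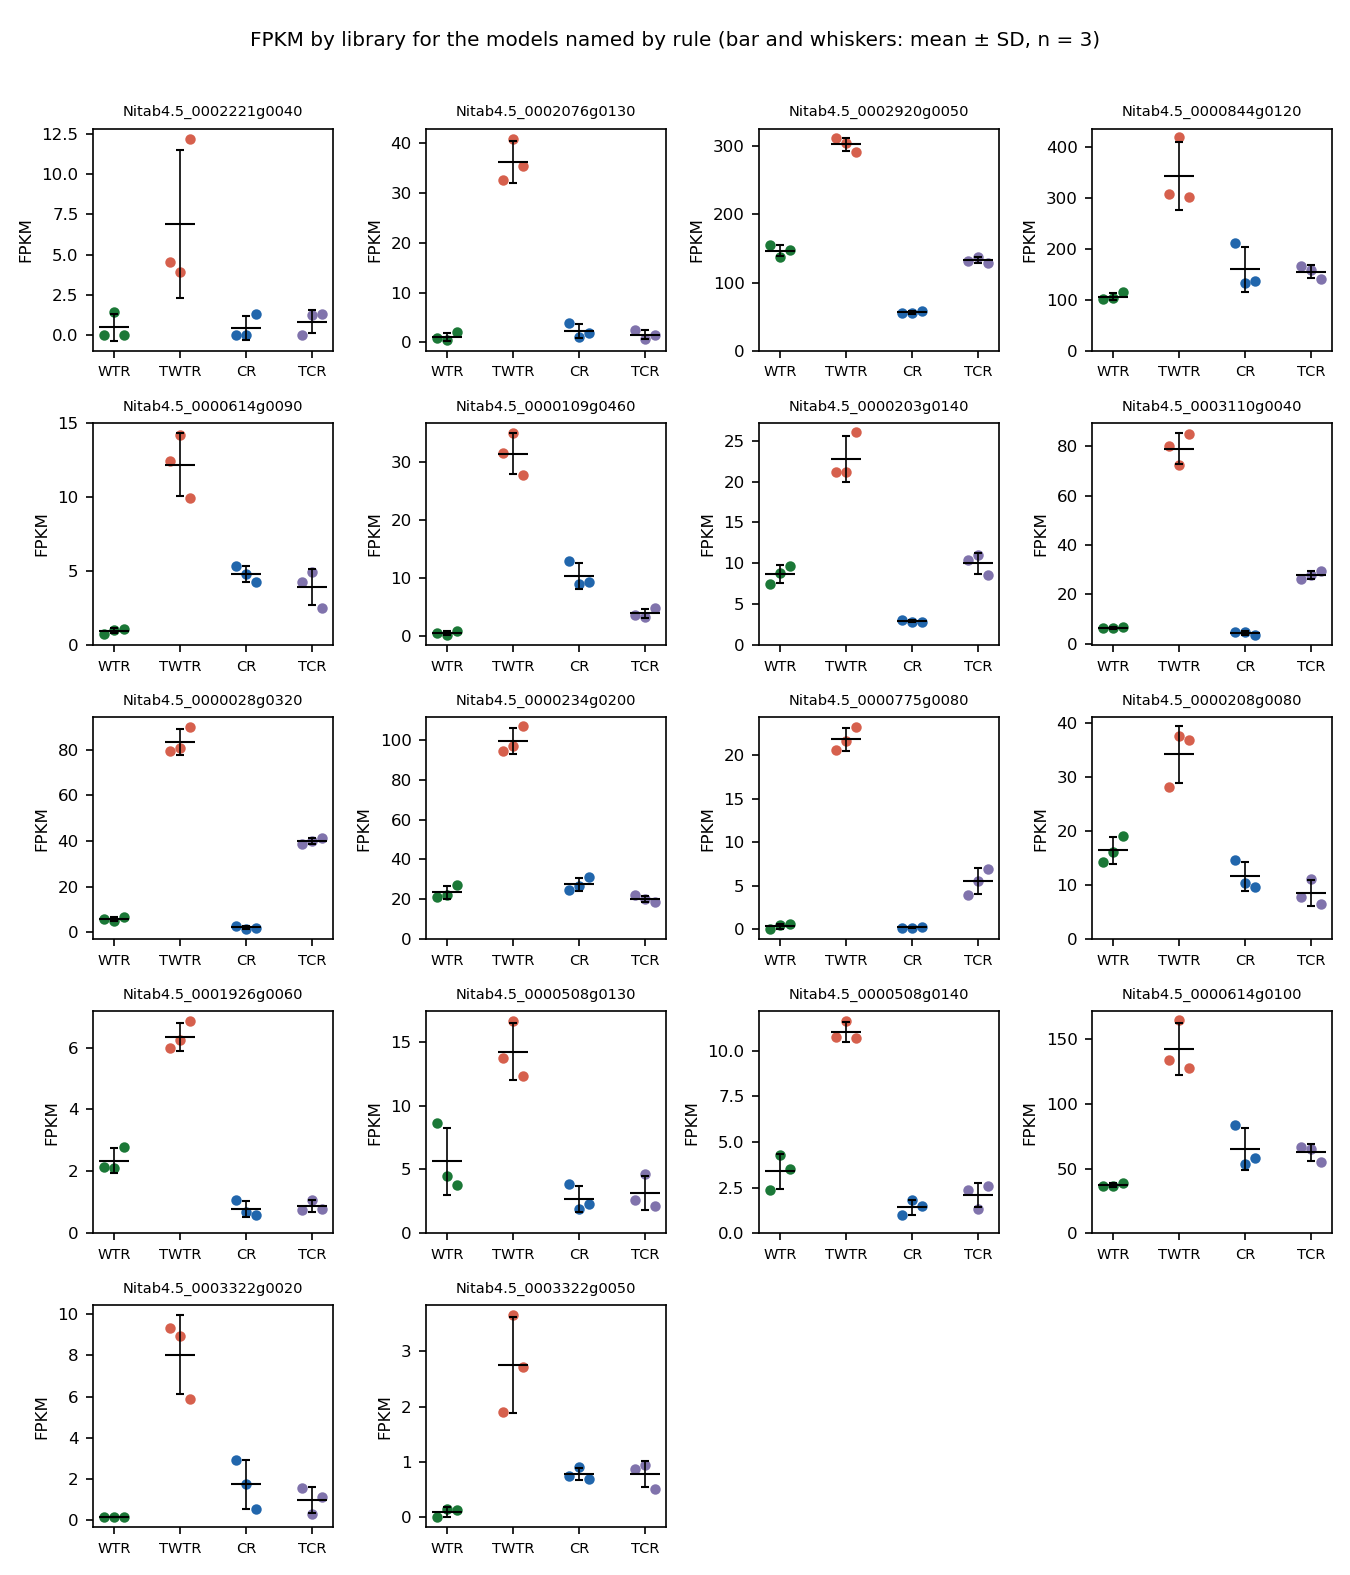
FPKM in each library (points) with mean and SD (n = 3) for 18 of the 48 models, each panel on its own scale. In every panel the 3 TWTR points lie above all others; CR was highest of the rest in Nitab4.5_0000109g0460, TCR in Nitab4.5_0000028g0320 and WTR in Nitab4.5_0002920g0050.

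The identifiers carry a scaffold number and a gene number, which the rule did not use. The 48 models lay on 45 of the 3170 scaffolds in the table, and 3 scaffolds held a pair of them. In 2 of these pairs the models were next to each other in the table. Nitab4.5_0000508g0130 stood at 13.71, 16.64 and 12.34 FPKM in TWTR and at 8.6, 4.51 and 3.77 in WTR, and its neighbour Nitab4.5_0000508g0140 at 10.75, 11.62 and 10.66 and at 2.38, 4.29 and 3.49. By mean, both were lower still in CR, at 2.69 and 1.43 FPKM, and in TCR, at 3.13 and 2.09. Both passed as falls in CR minus WTR (limma adjusted p 0.0467 and 0.00667), the first of them close to the threshold. For Nitab4.5_0000508g0130 these groups overlapped, with CR replicate 1 at 3.87 FPKM and WTR replicate 3 at 3.77. Neither model of the pair passed in TCR minus WTR (limma adjusted p 0.125 and 0.0939).

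The other adjacent pair differed in level and shared its order of groups. Nitab4.5_0000614g0100 was at 133.82, 165.36 and 127.85 FPKM in TWTR, at 36.34, 36.66 and 38.96 in WTR, at 83.71, 53.47 and 58.24 in CR, and at 66.93, 65.56 and 55 in TCR. Its neighbour Nitab4.5_0000614g0090, described above, also had TWTR highest, CR and TCR overlapping, and WTR lowest. Neighbouring copies that are nearly identical can share reads, and how such reads were assigned is not given in the sources used here; the sequences of these models were not analysed here.

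The pair on the remaining scaffold was separated by 2 other models. Nitab4.5_0003322g0020 stood at 9.31, 8.93 and 5.86 FPKM in TWTR and at 0.17, 0.17 and 0.15 in WTR, and Nitab4.5_0003322g0050 at 1.91, 3.65 and 2.71 and at 0, 0.15 and 0.14. The models between them had means of 11.2 and 5.40 FPKM in TWTR and 10.8 and 4.76 in WTR, and both were highest in CR. Of 65 models next to one of the 48, TWTR had the highest mean in 21 (32.3%, against 29.0% of all models), and the lowest TWTR value exceeded the 9 others in 9 (13.8%, against 7.77%).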

How the data were processed

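Per the labels' protocols, the authors extracted root RNA with TRIzol, sequenced it on a DNBSEQ-T7 instrument, cleaned the reads with fastp, aligned them with STAR, assembled transcripts with StringTie2 and matched them to known genes with Cuffcompare. The genome build, annotation release, versions and the program that made the values are not given in the sources used here. Per the file headers, the authors deposited FPKM. It depends on transcript length and library total, so abundant transcripts shift the other values of a library. Without counts, absolute depth is unknown and no counting interval can be given.

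Libraries were grouped by sample title. Values were transformed to log2(FPKM + 1), which understates differences of low models. The 19929 models that average 1 FPKM or more entered a limma 3.58.1 fit in R 4.3.3 with 4 group means and moderated variances (trend and robust), tested beforehand on simulated data; 5344 models below that mean were not tested. The submitters' design text names DESeq2, which needs counts. The rule for the models and the lists were chosen with earlier results of these data known. Named models had the 2 largest or 2 smallest gaps, the 2 highest TWTR means, the up to 2 largest passing differences in each direction of each contrast, or a shared scaffold within 10 places; the 2 models just outside the rule were added, giving 21 models. Gene lists by product name could not be used, as no identifier has a name. An added filter, chosen after seeing the data, took the mean over WTR, CR and TCR alone. Other alternatives changed the pseudocount, the lower limit on the mean, the scaling, the libraries and the design.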

Additional observations from a re-analysis of the deposited data

How the results depend on the processing

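The number of models the rule took moved with the pseudocount: it was 17 in place of 48 with a pseudocount of 5, all among the 48, and 62 with 0.1. It was 76 when overlap between libraries was allowed, 2 with a gap of at least 2, 32 with a mean of at least 5 FPKM, 53 with no lower limit, 46 after rescaling to TPM, 43 with median-of-ratios scaling, 44 after quantile normalization and 46 to 55 without any one library. Requiring a mean of at least 5 FPKM left 32 of the 48 models in the test. Of these 32, 10 fell in CR minus WTR, in place of 16 of 48. In TCR minus WTR 2 of the 32 fell, in place of 4 of 48. The share of all models called is not given for this setting or those below, so the counts show only how the calls among the chosen models moved. On leaving out each library in turn, 10 to 14 models rose and 14 to 17 fell in CR minus WTR, 16 to 17 rose and 2 to 4 fell in TCR minus CR, and 15 to 19 rose and 3 to 5 fell in TCR minus WTR. A fit of the 9 libraries of WTR, CR and TCR gave 13 and 15, 16 and 2, and 19 and 4, in the same order. Deviations of libraries with the same replicate number correlated at -0.089 to 0.099 over 18 pairs, so no pairing by number was seen. A small shared effect could go unseen here, and pairing is not excluded. With the replicate number as a block in the model, 13 models rose and 16 fell in CR minus WTR, 17 and 3 in TCR minus CR, and 17 and 4 in TCR minus WTR. No call of a model named for a contrast was lost or reversed under the alternatives run, except that Nitab4.5_0001926g0060 was not tested with a mean of at least 5 FPKM. Some low models may carry few fragments, judged by the spacing of their values, which would limit their precision.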

Other observations

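Most models that met the gap but had overlapping libraries held several values of 0. There were 28 such models, of which 27 stood at 0 in at least 3 libraries and 15 at 0 in at least 1 TWTR library. A value above 0 was found in 1 library only in 9 of them, and in TWTR libraries only in 11. Their gaps ran from 1.02 to 2.67.

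A further 5 models met every condition except the lower limit on the mean. Nitab4.5_0000676g0340, chosen for mention after its values were seen, was at 4.2, 2.97 and 1.76 FPKM in TWTR, at 0.29 in TCR replicate 2 and at 0 in the remaining 8 libraries. Nitab4.5_0004469g0030, chosen in the same way, was at 3.48, 2.58 and 2.58 FPKM in TWTR, and no other library exceeded 0.43. No model with a mean of 1000 FPKM or more met the other conditions.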
